A study of Mus musculus with 2 samples.

Results

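Isolated ELF3 regions are listed ELF3 peaks in mouse kidney tubule cells with no other ELF3 region for at least 150 kb on either side. They were chosen from the ELF3 list by width and by the gaps between its intervals: on chromosomes 1 to 19, 176 bp or wider, with a gap of 150000 bp or more to the nearest other interval on both sides, and not first or last on their chromosome. The rule gave 493 regions of 68319 (0.722%), with a total width of 238 kb, or 0.505% of all ELF3 cover. Width and gaps were thus measured in the list that chose the members and are given as descriptions. NFKB2 overlap comes from the other library and was not used to choose them.

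The study profiled primary renal tubular epithelial cells from kidneys of wild-type mice. All cells had received TNFα and IFNγ, 2 inflammatory cytokines, and no untreated cells are among the samples used here. CUT&RUN was performed with 1 library for ELF3 and 1 for NFKB2, both in the same labelled batch; in this assay a nuclease held at an antibody cuts out the DNA around the bound protein. The sources used here do not give the ages or number of the animals or the dose and time of the cytokines, and no marker of the cell type could be checked in peak lists.

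ELF3 is an ETS-family transcription factor of epithelia, known for binding DNA with a GGAA core and for its induction by inflammatory cytokines. NFKB2 is made as the precursor p100, which holds RelB in the cytoplasm, and is processed to p52, which binds DNA with RelB when the non-canonical NF-κB pathway is active. In the mammalian genome, binding sites of transcription factors tend to lie in groups at promoters and enhancers, and gene-poor stretches hold few of them. No gene or sequence is given for the regions named here, because the reference tables used belong to another genome build than the coordinates.

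Strength is given as fragments, the number of sequenced DNA fragments piled up at a region's summit, worked back from the deposited fold and −log10 p. Depth was 10.1 fragments per kb of the caller's genome size for ELF3 and 10.6 for NFKB2, a ratio of 1.04. Each antibody had a single library, so nothing here has a replicate check, and no p-value is given, since regions are not replicates of each other. The 95% intervals (exact Clopper-Pearson for shares, exact Poisson for fragments, exact binomial for ratios) cover counting error only, and fragments without molecular identifiers need not be independent molecules. The floor is the lowest local background that the caller used in a library.

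Long gaps between ELF3 regions were rare but often lay next to each other. The median gap between neighbouring ELF3 regions on chromosomes 1 to 19 was 12909 bp, and 2536 of 66683 gaps (3.80%) reached 150 kb. Of the 2533 gaps that directly followed such a gap, 546 were as long (21.6%). The isolated regions had a median gap of 217 kb to the nearer neighbour (quartiles 175.3 and 327 kb) and of 450 kb to the farther one (quartiles 289 and 773 kb). In 46 of them the nearer neighbour was 500 kb or more away, and in 13 it was 1 Mb or more away.

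**Figure D1:**
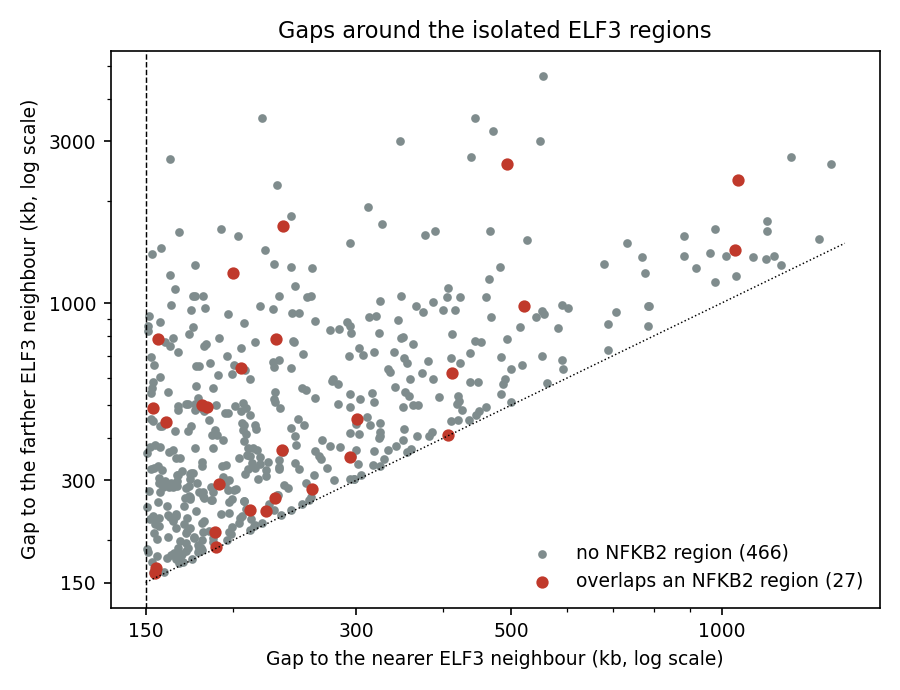
Each point is 1 of the 493 isolated ELF3 regions, by its gap to the nearer (x axis) and the farther ELF3 neighbour (y axis), both in kb on log scales; the dashed line is the 150 kb limit and the dotted line marks equal gaps. The 27 regions that overlap an NFKB2 region (red) lie among the 466 that do not (grey), from the limit up to gaps of over 1 Mb.

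No region at the limits of the rule overlapped NFKB2. The member with the smallest nearer gap, 150557 bp, lay on chromosome 14 at 51718977 to 51719986 and had 8 fragments. The region nearest outside, with 149269 bp, lay on chromosome 4 at 15481390 to 15481882 and had 73 fragments. The 4 narrowest members were 176 bp wide with 9 to 15 fragments, and 2 isolated regions only 1 bp narrower, left out by the rule, had 11 and 15.

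Of the 5 most remote members 3 were weak. On chromosome 8, the region from 100787827 to 100788014 had its nearest ELF3 neighbours 1435 kb to the left and 2566 kb to the right, and held 10 fragments (4.80 to 18.4). The member on chromosome 15 at 48653928 to 48654215 held 9 fragments with gaps of 2687 and 1256 kb. A member on chromosome 7 at 14356925 to 14357398 also held 9, with gaps of 1215 and 1298 kb. The other two were stronger. The region on chromosome 3 at 112046000 to 112046349 held 42 fragments (30.3 to 56.8) between gaps of 1539 and 1377 kb. The one on chromosome 6 at 20037799 to 20038180 held 94 (76.0 to 115) between gaps of 1188 and 1376 kb. None of these 5 overlapped NFKB2, and the nearest NFKB2 region to each was 1189 to 2804 kb away. The most remote members were not free of NFKB2 as a group. It overlapped 2 of the 13 with a nearer gap of 1 Mb or more, and 3 of the 46 with 500 kb or more. Both counts include the member on chromosome 2 at 98497177 to 98497527, whose local background was 24596 times the floor. The share over all members was 5.48%.

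NFKB2 was seldom listed at isolated ELF3 regions. An NFKB2 region overlapped 27 of the 493 by 1 bp or more (5.48%, 95% interval 3.64 to 7.87), against a background of 19.7% over all ELF3 regions. Among the 67826 other ELF3 regions the share was 19.8% (19.5 to 20.1). Among the 62247 others that met every part of the rule except the gaps it was 21.2% (20.8 to 21.5), and these serve as the other ELF3 regions from here on unless all of them are named. The intervals of members and others were far apart. The member share was the lower one on all 19 chromosomes, a count that carries little weight. On 6 of them no member overlapped NFKB2, which counts as lower wherever any other region did. On another 11 only 1 to 3 members overlapped it.

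A long gap on 1 side went with an intermediate share. ELF3 regions with a gap of 150 kb or more on 1 side only overlapped NFKB2 in 410 of 3639 cases (11.3%, 10.3 to 12.3). Those with no such gap did so in 12761 of 58608 (21.8%, 21.4 to 22.1).

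NFKB2 overlap was lower the farther the nearer ELF3 neighbour lay, with the steepest decline beyond 50 kb. It was 25.7% (24.9 to 26.46) for regions whose nearer neighbour was 1000 bp to under 2 kb away, the closest class. For gaps of 20 to 50 kb it was 18.2% (17.4 to 19.05). From 50 to 100 kb it was 11.3% (10.04 to 12.7), and from 100 to 150 kb, just short of the limit, 6.93% (4.87 to 9.51). Among the members it was 4.95% (2.40 to 8.92) for gaps of 150 to 200 kb, 6.99% (3.40 to 12.5) for 200 to 300 kb and 4.73% (1.92 to 9.502) beyond 300 kb. These last intervals overlap, so no order among the members by gap can be read at this number of regions. Among regions of 20 to 49 fragments, at least 250 bp and under 700 bp wide, the share went from 21.1% (19.4 to 22.9) in the first class to 8.28% (5.98 to 11.1) at 50 to 100 kb and 6.42% (2.62 to 12.8) at 100 to 150 kb. The limit of 150 kb falls after most of the decline, not at its start.

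**Figure D2:**
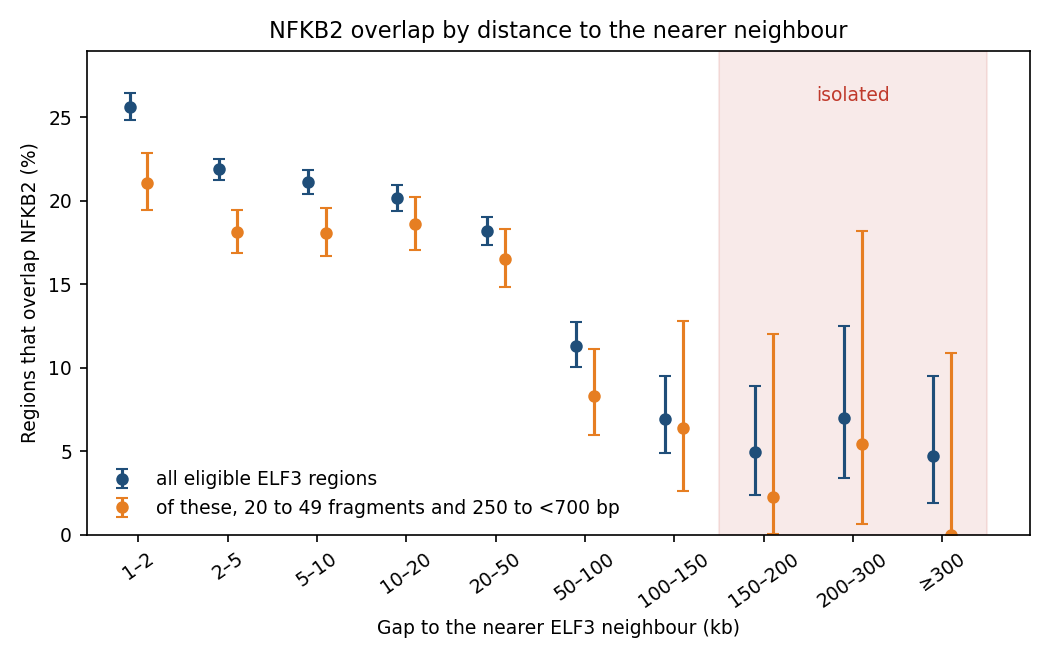
Share of ELF3 regions that overlap NFKB2 (y axis, percent) by the gap to the nearer ELF3 neighbour (x axis, kb), for all eligible regions (blue) and for those of 20 to 49 fragments, at least 250 bp and under 700 bp (orange); bars are exact 95% intervals and the shaded bins hold the isolated regions. The blue share is 25.7% in the first bin, 18.2% at 20 to 50 kb and 4.73% in the last.

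Isolated regions were narrower and slightly weaker than the others, both of which go with less NFKB2 in the whole list. Their median width was 317 bp (quartiles 223 and 569) against 455 bp (267 and 927), and 9.74% were wider than 1000 bp against 22.5%. They held a median of 20 fragments (12 and 33) against 23 (14 and 38). The median deposited fold over background was 8.37 against 9.89, and the median −log10 q 13.4 against 18.1. No gap around members or others was under 1000 bp, so width and gap need not be independent traits. At like width the strength was close up to 700 bp. Members of 176 to 250 bp held a median of 15 fragments and others of that width 16, and the medians were 26 and 27 from 401 to 700 bp. Members were weaker from 701 to 1000 bp, at 18 against 25, and from 1001 to 2000 bp, at 26 against 30. Above 2000 bp the 7 members held 44 and the others 42.

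**Figure D3:**
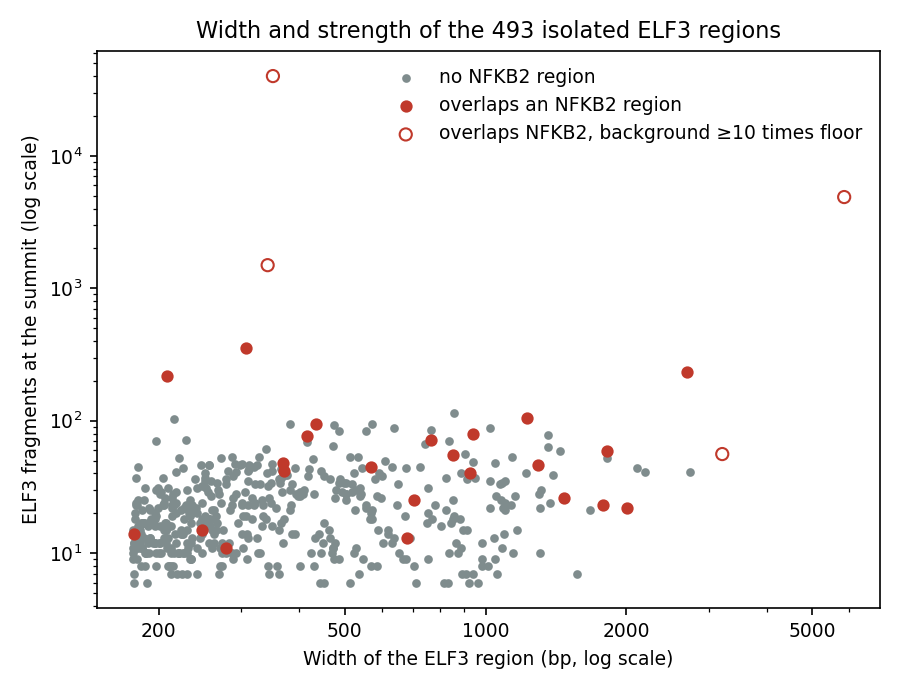
Width (x axis, bp) and fragments at the summit (y axis), both on log scales, for the 493 isolated ELF3 regions. Regions with NFKB2 (red) reach farther up and right than those without (grey), and the 4 open circles are regions whose local background is at least 10 times the floor.

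The lower NFKB2 share was also seen among regions of like strength. Of members with 31 to 50 fragments, 5 of 92 overlapped NFKB2 (5.43%, 1.79 to 12.2), against 32.5% (31.7 to 33.3) of the others. With 51 to 100 fragments it was 7 of 35 (20%, 8.44 to 36.9) against 57.7% (56.6 to 58.8). With 16 to 20 fragments none of 64 members did (upper limit 5.60%), against 8.80% (8.24 to 9.39). With 21 to 30 fragments 4 of 105 members did (3.81%, 1.05 to 9.47), against 16.7%. At both ends of the range the member share could not be told apart from that of the others at this number of regions. Of members with 11 to 15 fragments 4.08% (1.12 to 10.1) overlapped NFKB2, against 4.99%, and none of the 90 members with 10 or fewer did (upper limit 4.02%), against 2.80%. Above 100 fragments 7 of 9 did (77.8%, 40.0 to 97.2), against 81.6%. With local background under 10 times the floor, 4 of 6 members with 100 or more fragments did (66.7%, 22.3 to 95.7), against 80.4%.

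The same held for regions of like width. From 401 to 700 bp, 4 of 95 members overlapped NFKB2 (4.21%, 1.16 to 10.4), against 24.04% (23.3 to 24.8) of the others. From 1001 to 2000 bp it was 5 of 41 (12.2%, 4.08 to 26.2) against 37.2% (36.3 to 38.2). In the narrowest class, 176 to 250 bp, the shares were 1.76% (0.365 to 5.07) and 2.59% (2.33 to 2.88), which do not differ beyond counting error. Of the 7 members wider than 2000 bp 4 overlapped NFKB2 (57.1%, 18.4 to 90.1), against 63.5% of the others. Among these 4, the members on chromosomes 7 and 17 had local backgrounds 15.4 and 89.3 times the floor.

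**Figure D4:**
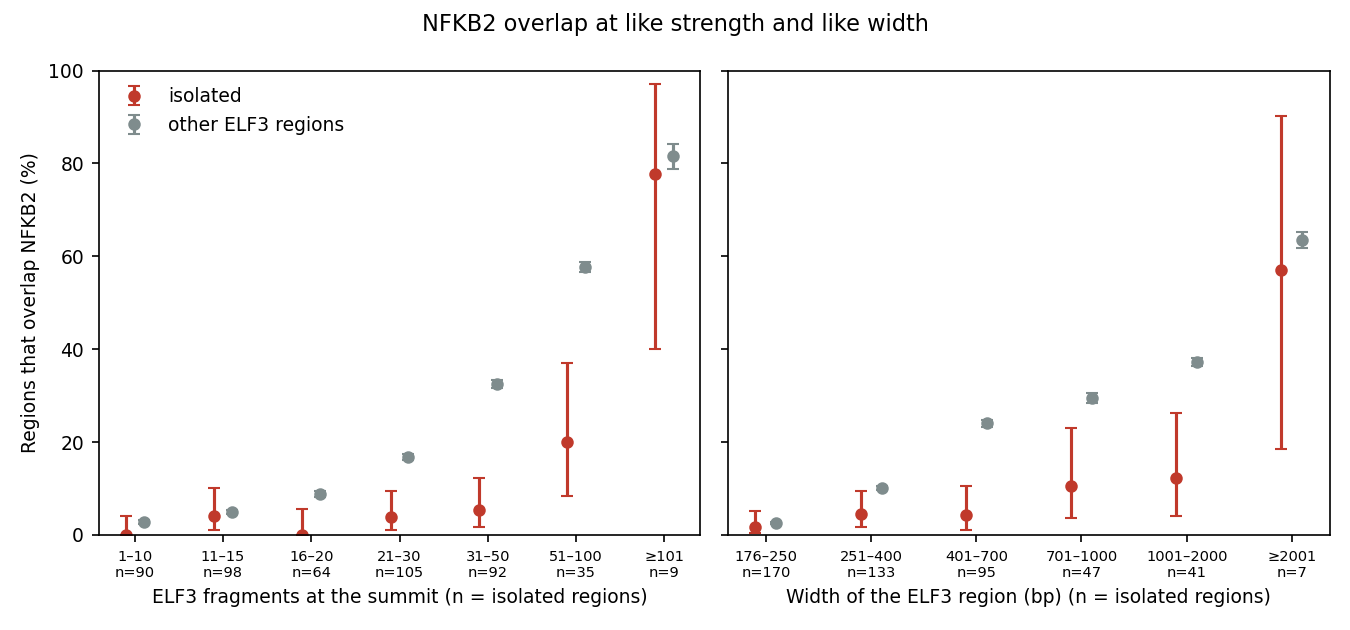
Share of regions that overlap NFKB2 (y axis, percent) by ELF3 fragments at the summit (left) and by width in bp (right), for isolated regions (red) and other ELF3 regions (grey); bars are exact 95% intervals, and n counts the isolated regions per bin. Red lies below grey in every bin, with intervals apart in the middle bins and overlapping at the ends.

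Weighting the others to the members' makeup left a difference. With the members' mix of fragments the other regions had an NFKB2 share of 17.8%, and with their mix of widths 15.04%. With both at once it was 14.3%, or 2.61 times the members' 5.48%. The member share was the lower in 28 of 37 joint bins, a count that carries little weight. Only 27 members overlapped NFKB2, and a bin with none of them counts as lower wherever any other region overlapped. In regions of 20 to 49 fragments, at least 250 bp and under 700 bp wide, 3 of 113 members overlapped NFKB2 (2.65%, 0.551 to 7.56), against 2428 of 13458 others (18.0%, 17.4 to 18.7). The NFKB2 list starts at 8 fragments for regions at the floor, so weaker NFKB2 signal at a member would not be listed.

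Local background, which the caller takes from a control, was not generally raised at isolated regions. It was at the floor in 349 of the 493 (70.8%) and in 70.3% of the others. The NFKB2 share was 16 of 349 members at the floor (4.58%, 2.64 to 7.34), against 21.3% of the others at the floor. Between the floor and 10 times the floor it was 7 of 140 members (5.00%, 2.03 to 10.03), against 20.8% of the others. In 4 members (0.811%) and 34 of the others (0.0546%) it reached 10 times the floor. All 4 overlapped NFKB2, as did 32 of the 34 others (94.1%, 80.3 to 99.3). Without the 4, the member share was 23 of 489 (4.70%, 3.005 to 6.97).

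Of these 4, 3 held the most NFKB2 fragments of all members. The member on chromosome 2 at 98497177 to 98497527 had a local background 24596 times the floor and a deposited fold of only 1.33. On chromosome 17, at 40153880 to 40159729, the background was 89.3 times the floor, and ELF3 had 4886 fragments and NFKB2 1169. On chromosome 8, at 15569776 to 15570117, it was 23.5 times the floor, with 1495 and 452 fragments. The fourth lay on chromosome 7 at 11744331 to 11747539, with 56 ELF3 and 55 NFKB2 fragments at 15.4 times the floor. What raised the background at these places was not tested.

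Members with NFKB2 were the wider and stronger ones. The 27 had a median width of 702 bp (quartiles 360 and 1385) and 55 ELF3 fragments (25.5 and 100), and 14 of them had 50 or more. The 466 members with no NFKB2 were narrower, at 309 bp (220 and 540), and held 19 fragments (12 and 30.8). All other ELF3 regions of the list showed the same order, with 910 bp and 43 fragments where NFKB2 overlapped and 346 bp and 19 fragments where it did not.

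The strongest isolated regions at the floor were split between both kinds. On chromosome 4, the region from 79920736 to 79923431 had 234 ELF3 fragments (205 to 266) over 2696 bp, and NFKB2 had 208 (181 to 238), with both summits on the same base. Its ratio of NFKB2 to ELF3, adjusted for depth, was 0.851 (0.703 to 1.03). A second region on chromosome 4, at 152918268 to 152919495, had 105 ELF3 fragments (85.9 to 127) but only 15 of NFKB2 (8.40 to 24.7), a ratio of 0.137 (0.0739 to 0.236). These regions differ in NFKB2 signal far beyond counting error. On chromosome 3, at 43900233 to 43900666, ELF3 had 95 fragments and NFKB2 23, a ratio of 0.232 (0.140 to 0.369), with the nearest other ELF3 regions 1046 and 1430 kb away.

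The remaining members of this top group had no NFKB2 region. The one on chromosome 6 at 109482218 to 109482433 held 103 fragments (84.1 to 125) in only 216 bp, and the nearest NFKB2 region was 677 kb away. The one on chromosome 2 at 54457548 to 54458021 held 93 fragments (75.1 to 114), with the nearest NFKB2 region at 1375 kb. NFKB2 was missing from 22 of the 28 members at the floor that held 50 or more ELF3 fragments. Thus 6 of 28 overlapped it (21.4%, 8.30 to 41.0), against 3520 of 5925 others of that kind (59.4%, 58.1 to 60.7).

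Where NFKB2 was listed at an isolated region, its median level relative to ELF3 was like that elsewhere. The median ratio over the 27 was 0.361 (quartiles 0.255 and 0.597), against 0.393 (0.276 and 0.567) over the 13404 shared regions among all other ELF3 regions. At the floor in both libraries it was 0.405 in 13 members and 0.396 in 8499 others. These ratios include only regions that passed the NFKB2 listing limit. ELF3 was higher beyond counting error in 19 of the 27 members (70.4%) and in 9601 of the 13404 others (71.6%). NFKB2 was higher beyond counting error in 155 of the others (1.16%) and in 2 members (7.41%). These were the high-background member on chromosome 2 and a member on chromosome 16 at 27520971 to 27521249, which was chosen after its values were seen. There ELF3 had 11 fragments (5.49 to 19.7) and NFKB2 26 (17.0 to 38.1), a ratio of 2.26 (1.08 to 5.07), with no allowance for the choice among 27.

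The remaining member among the 5 of most NFKB2 fragments lay on chromosome 6 at 9889947 to 9890154. It had 219 ELF3 fragments (191 to 250) and 252 of NFKB2 (222 to 285), and the ratio of 1.102 (0.916 to 1.33) did not differ from equal signal. Its local background was 4.06 times the floor, and at 208 bp it was narrow for its count.

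The summits of both factors lay close together in shared members. Their median distance was 41 bp (quartiles 9 and 103), and 19 of 27 lay within 100 bp (70.4%). Among the other shared regions the median was 40 bp and 77.0% lay within 100 bp. Each shared member held exactly 1 NFKB2 region, and only 327 of the 13404 other shared regions held several. NFKB2 covered a median of 56.0% of the width in shared members and 45.9% in the others. In the 23 shared members with background under 10 times the floor in both libraries it was 49.9%.

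**Figure D5:**
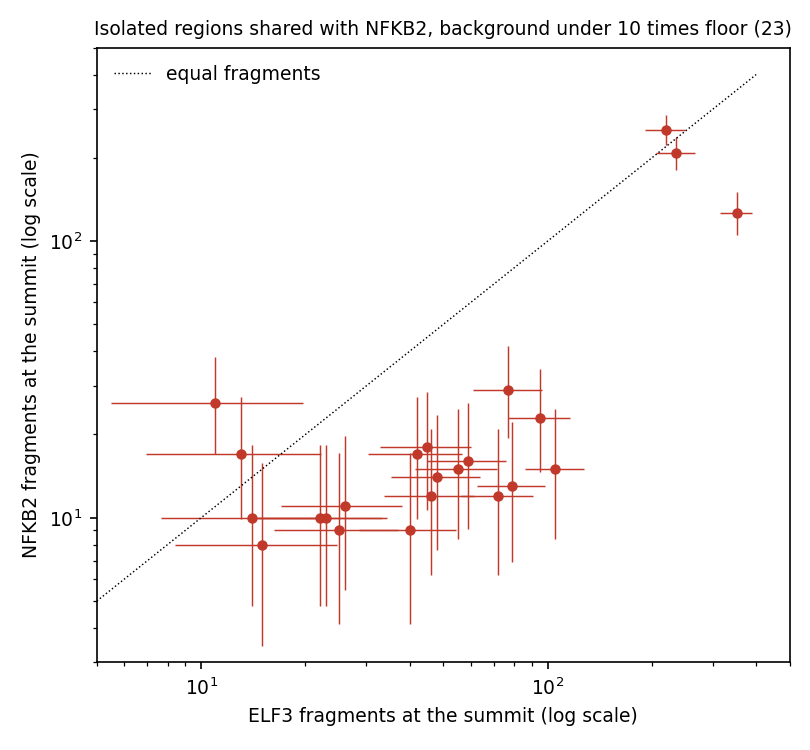
NFKB2 fragments (y axis) against ELF3 fragments (x axis) at the summits, on log scales, for the 23 shared isolated regions whose local background is under 10 times the floor; bars are exact Poisson 95% intervals and the dotted line marks equal counts. Most points lie below the line, and the 3 regions of 11, 13 and 219 ELF3 fragments lie above it.

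The empty flanks of the isolated regions held few NFKB2 regions. The rule keeps out those on ELF3 regions, which were 96.8% of all NFKB2 regions, but not those without ELF3. By the rule, the 150 kb on each side of a member hold no ELF3 region; together these flanks spanned 144 Mb, or 5.999% of the listed stretch of the autosomes. They held 9 NFKB2 regions, or 6.25 per 100 Mb (2.86 to 11.9). Elsewhere on the autosomes NFKB2 regions without ELF3 numbered 422, or 18.7 per 100 Mb (17.0 to 20.6). Why these rates differ was not tested. One of the 9, on chromosome 2 at 98492664 to 98493034, lay beside the high-background member and had a background 5619 times the floor. The other 8 were weak, with 9 to 14 fragments.

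The distance from a member to the nearest NFKB2 region was largely set by the rule, since 96.8% of NFKB2 regions lay on ELF3 regions. Over the 466 members without NFKB2 the median distance to it was 650 kb (quartiles 369 and 1123), and for 144 of them it was over 1 Mb. Over the 49076 other ELF3 regions without NFKB2 the median was 45.03 kb (quartiles 14.3 and 137). In 1 member it was under 10 kb: the region on chromosome 5 at 116765356 to 116766229, with 10 ELF3 fragments, had a weak NFKB2 region 4.71 kb away.

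Isolated regions often followed one another along a chromosome. Neighbouring members share the long gap between them, so the rule itself favours runs, and no expected number of runs was computed. Of the 493, 267 stood alone and 226 were in 91 runs of 2 or more members with no other ELF3 region between them. There were 62 runs of 2, 16 of 3, 11 of 4 and 2 of 5. The runs of 5 lay on chromosome 15 at 15284888 to 17837341, with 7 to 46 fragments, and on chromosome 2 at 81439823 to 82886960, with 23 to 46 fragments. Neither held a region shared with NFKB2, but 15 of the 91 runs did. Of the 226 members in runs 17 were shared. Over all 493, which contain these 226, it was 27 (5.48%). The shared members in runs include the high-background ones on chromosomes 7, 8 and 17 named above. A run of 4 on chromosome 2 from 85850953 to 90025312 stretched over 4.17 Mb with 14 to 22 fragments. These runs were chosen for naming after their lengths were seen.

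The members were spread over all 19 autosomes, more densely where ELF3 regions were sparse. Chromosome 4 had the most members per Mb, 0.300 (46 members), and chromosome 14 the next most, 0.279 (34 members). Chromosome 14 also had the fewest ELF3 regions per Mb of these chromosomes, 23.8. Chromosome 19 held 5 members, or 0.0861 per Mb, at 33.1 ELF3 regions per Mb. Over the 19 chromosomes of the same library, Spearman's rho between members per Mb and ELF3 regions per Mb was -0.74; both come from the same list, and sparser regions leave longer gaps by construction. The median strength of members ranged from 14.5 fragments on chromosome 16 to 37 on chromosome 19.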

How the data were processed

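CUT&RUN peak lists of 1 ELF3 and 1 NFKB2 library were used, grouped by the labels. MACS2 called the regions, per the submitters' processing notes; the sources used here name no version, settings, aligner or filters. The series' design text names IgG as negative control, but not which control entered the calling. In the deposited lists, the fold is the caller's ratio of summit signal to local background. The deposited −log10 p and q values describe the summit, and the deposited score repeats 10 times −log10 q. Deposited starts count from 0 and are printed here 1-based, on the deposited build. The submitters' processing notes name mm10, but sequence names in the lists belong to GRCm39. The tables at hand use GRCm38, so promoter and motif shares, planned with an annotation, were not run.

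Fragments and background were solved from fold and −log10 p (within 0.01, scaled up above 100), for 100% of ELF3 and 99.97% of NFKB2 regions. A fragment was worth 1.00 and 0.964 in the caller's units. Functions were tested on simulated data. Members, lists and comparisons were chosen with earlier results of these data known. Regions named are the 5 members of most ELF3 fragments at the floor, the 5 with the largest nearer gap, the 5 of most NFKB2 fragments, and those at the rule's limits. Weighted shares average the others' share per bin over the members' bins. Python 3.11.15, numpy 2.4.6, scipy 1.17.1 and pandas 2.3.3 were used. Alternatives are in the closing section.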

Additional observations from a re-analysis of the deposited data

How the results depend on the processing

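Of 58 values under other settings, 37 stayed within the interval of the reported value, or within 1.5 times for the number of members. The member share of NFKB2 stayed below that of the others under every setting in which both were computed. Gaps of 100, 200 and 300 kb gave 998, 291 and 148 members. Wider than 250 bp left 323, with a median of 472 bp and 24 fragments, and 25.9% of others on NFKB2. With no width limit the median was 288 bp. Isolation among ELF3 regions of −log10 q of 10 or more gave an NFKB2 share of 8.68%, 380 bp and 29 fragments, and of 5 or more 24 fragments. With NFKB2 regions of −log10 q of 5 or more, members had 3.25% and others 14.3%, and at 10 or more 2.03% and 7.79%. Summits within 100 bp gave 15.3% for others. Others that met all of the rule but the gaps had 21.2%. The difference, -14.3 percentage points, was -11.5 by summits, -9.57 within bins of width and -8.81 within bins of fragments and width. The joint bins and the limit of 10 times the floor were added after the data were seen. The width and −log10 q limits drop narrow or weak regions by construction. No paired analysis was possible because each antibody has 1 library. With 493 members, 1 region is 0.203 percentage points, and NFKB2 signal under about 8 fragments is not listed.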

Other observations

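The width limit left out 53 autosomal ELF3 regions that were as isolated as the members but narrower than 176 bp. They held a median of 12 fragments (quartiles 10 and 16), and 39 of them were at the floor. None overlapped NFKB2 (0 of 53, upper 95% limit 6.72%). The summit lay in the middle 50% of the width in 63.7% of members and in 60.4% of the other ELF3 regions.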
